A study of Mus musculus with 36 samples.

Results

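Meiotic and germline genes are active in the germline and kept low in most somatic cells. 10 of them were followed here across reprogramming with and without Zfp266: Sycp1, Sycp3 and Hormad1 of the meiotic chromosome axis and synaptonemal complex, Stag3, Rec8 and Smc1b of meiotic cohesin, and Dazl, Tex19.1, Sohlh2 and Mov10l1, which act in RNA control, transcription and transposon defence of germ cells. They were chosen by gene name, with earlier results of these data known. All 10 were found among the 21442 genes of the count table. Shares of members called, set beside those of all genes, therefore describe these members and do not test them as a group.

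Messenger RNA was sequenced from 36 mouse libraries, 3 for each of 6 stages in each of 2 genotypes, wild-type (WT) and Zfp266 knockout (KO). The stages were mouse embryonic fibroblasts (MEFs), days 3, 5 and 7 of reprogramming (D3, D5 and D7), induced pluripotent stem cells (iPSCs) and embryonic stem cells (ESCs). The series asks how loss of Zfp266, which encodes a zinc finger protein, alters expression before, during and after reprogramming. MEFs were passage 2 cells of E12.5 embryos, labelled strain 129. Per the methods of the study these embryos were chimaeras made with a Cas9 TNG MKOS ESC line, so that WT and KO MEFs alike carried Cas9, a Nanog-GFP reporter and a doxycycline-inducible Myc, Klf4, Oct4 and Sox2 cassette marked by mOrange. WT MEFs received a lentivirus with a non-targeting guide RNA and KO MEFs one with a Zfp266 guide RNA, and RNA was taken after a further 96 hours of culture. For D3, D5 and D7 (strain 129) the same MEFs were mixed with WT MEFs, transduced in the same way and given reprogramming medium with 300 ng/ml doxycycline and vitamin C, and mOrange+ cells were sorted. KO libraries of MEFs and of D3, D5 and D7 were therefore populations of edited cells, in which unedited cells can remain. The iPSCs (strain 129) were lifted at day 15 and grown without doxycycline and with puromycin, and each of the 3 WT and 3 KO libraries was a clone grown from a sorted cell. KO ESCs were 3 clones derived from the ESC line Clone J after transfection of a Zfp266 guide plasmid, while all 3 WT ESC libraries came from that parental line and hold no spread between clones. In ESCs, effects of genotype and of transfection and cloning therefore cannot be told apart. No strain or age was labelled for the ESCs.

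During meiosis, homologous chromosomes are organised on protein axes, held together by cohesin rings with meiosis-specific subunits, and zipped together by the synaptonemal complex. Many promoters of such genes are silent in the soma, through DNA methylation of CpG-rich promoters and through the variant Polycomb complex PRC1.6, in which E2F6 recognises TCCCGC-type sites and the MGA-MAX dimer recognises the E-box CACGTG. Mouse ESCs are known to transcribe part of the germline programme at low to moderate levels while not entering meiosis.

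The start regions of the 10 genes were read from RefSeq in GRCm38.p6, from 250 bases before to 50 after each start, and all 10 had an entry. TCCCGC on either strand, which reads GCGGGA on the opposite strand, occurred in 7 of 10 windows, against 20.0% of all 27025 promoter windows of this length. CACGTG, which is its own reverse complement, occurred in 5 of 10 against 7.24%, and both motifs in 4 of 10 (Sycp1, Sycp3, Stag3 and Hormad1) against 2.05%. The windows were CpG-rich, with 15 to 30 CpG per window and a median of 20.5, against a median of 7 over all promoters. Of the 9514 promoters with at least 15 CpG, 45.2% held TCCCGC, 11.5% held CACGTG and 5.08% held both. Smc1b, Rec8 and Tex19.1 had TCCCGC alone, Mov10l1 had CACGTG alone, and neither string was found in the windows of Dazl and Sohlh2. A match describes the letters of the window and was not tested as a binding site. The windows of 6 genes are printed 5' to 3' on the strand of the gene, with matches to either motif in capitals: Smc1b, Hormad1, Stag3 and Sohlh2, whose KO and WT iPSCs differed most, Tex19.1, the member that differed at D5 and D7, and Sycp3, a gene with both motifs and no call between genotypes at any stage.
Smc1b (chr15:85131908-85132207, minus strand): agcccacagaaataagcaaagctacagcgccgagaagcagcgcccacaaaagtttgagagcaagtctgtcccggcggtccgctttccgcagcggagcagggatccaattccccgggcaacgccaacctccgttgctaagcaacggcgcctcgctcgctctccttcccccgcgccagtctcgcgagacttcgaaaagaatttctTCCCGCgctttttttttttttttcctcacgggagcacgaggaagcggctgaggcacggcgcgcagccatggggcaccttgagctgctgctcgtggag
Hormad1 (chr3:95559427-95559726, plus strand): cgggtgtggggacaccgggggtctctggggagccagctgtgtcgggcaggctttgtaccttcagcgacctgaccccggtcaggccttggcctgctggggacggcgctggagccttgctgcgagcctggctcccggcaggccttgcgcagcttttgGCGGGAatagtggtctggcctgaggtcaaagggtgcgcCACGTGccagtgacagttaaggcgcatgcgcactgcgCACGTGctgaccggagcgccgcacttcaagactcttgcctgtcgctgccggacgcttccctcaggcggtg
Stag3 (chr5:138280259-138280558, plus strand): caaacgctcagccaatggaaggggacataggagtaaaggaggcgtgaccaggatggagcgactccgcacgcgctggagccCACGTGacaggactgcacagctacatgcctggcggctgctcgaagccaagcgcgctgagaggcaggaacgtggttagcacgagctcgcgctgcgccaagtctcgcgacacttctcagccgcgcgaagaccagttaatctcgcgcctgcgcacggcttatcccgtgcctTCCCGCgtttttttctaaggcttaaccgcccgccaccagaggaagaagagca
Sohlh2 (chr3:55181794-55182093, plus strand): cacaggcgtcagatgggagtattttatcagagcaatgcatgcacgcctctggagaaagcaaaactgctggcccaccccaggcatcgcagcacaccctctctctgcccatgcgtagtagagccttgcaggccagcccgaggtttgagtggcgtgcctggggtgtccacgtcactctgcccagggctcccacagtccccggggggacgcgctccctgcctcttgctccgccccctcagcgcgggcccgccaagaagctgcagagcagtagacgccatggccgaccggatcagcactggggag
Tex19.1 (chr11:121145893-121146192, plus strand): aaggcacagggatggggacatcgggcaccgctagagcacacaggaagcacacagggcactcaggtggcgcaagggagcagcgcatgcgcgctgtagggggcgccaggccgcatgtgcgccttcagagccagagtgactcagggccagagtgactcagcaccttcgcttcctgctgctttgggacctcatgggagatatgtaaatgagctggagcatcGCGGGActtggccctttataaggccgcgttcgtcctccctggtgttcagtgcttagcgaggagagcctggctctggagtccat
Sycp3 (chr10:88459337-88459636, plus strand): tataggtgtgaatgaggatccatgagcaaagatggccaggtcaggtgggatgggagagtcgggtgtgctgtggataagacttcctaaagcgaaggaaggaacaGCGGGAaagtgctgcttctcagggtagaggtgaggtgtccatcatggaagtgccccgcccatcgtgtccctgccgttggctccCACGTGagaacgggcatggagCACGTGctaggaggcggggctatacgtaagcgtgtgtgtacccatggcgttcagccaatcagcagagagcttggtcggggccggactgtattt

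Total counts per library ranged from 19224103 to 39610939. A library with 0 reads of a gene allows a level of up to 3 reads (95% limit), or between 2.31 and 5.22 after division by its size factor, and such limits cover counting error only. The Zfp266 transcript was present in every library, at 2828 to 3293 normalised counts in MEFs of both genotypes and 1266 to 2049.5 at D3, D5 and D7, with 2529 to 2817 in WT iPSCs, 1892 to 2212 in KO iPSCs, 2238 to 2445 in WT ESCs and 1969 to 2222 in KO ESCs, and guide-directed indels need not lower a count. The marker lists went with the stage labels. 10 fibroblast genes summed to 430217 ± 7949 normalised counts (mean ± SD, n = 3) in WT MEFs and 79.7 ± 6.94 in WT ESCs, and 10 pluripotency genes to 395 ± 66.8 and 108357 ± 1365. Library preparation date was a batch in the study but is not in the labels, so no values within such a batch can be given. Where nothing states that libraries came from separate cultures, p-values measure the spread between these libraries, which may be technical.

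To place the 10 genes along reprogramming, WT levels were followed from MEFs to ESCs. All 10 genes had at most 33.3 normalised counts in any WT MEF library and were higher in every WT iPSC and ESC library than in any WT MEF library, and of the earlier steps only those of Tex19.1, Rec8, Stag3 and Hormad1 passed the test. Summed over the 10 genes, WT MEFs had 52.2, 59.1 and 60.5 normalised counts in replicates 1, 2 and 3, and WT D7 cells 150.1, 179 and 118. WT iPSCs had 3012, 2173 and 3914 and WT ESCs 4454, 4427 and 4029. A gene was called at DESeq2 FDR < 0.05 and log2FC beyond 1 in either direction. By this rule 10 of 10 rose between WT MEFs and WT ESCs, where 26.0% of all genes tested were called higher, and 10 of 10 rose between WT D7 cells and WT iPSCs (20.0%). No library of the lower group overlapped the higher group for any member in either comparison, as for 42.2% and 35.9% of genes. These comparisons share libraries with the neighbouring ones, and in bulk RNA a lower level may reflect fewer cells with the transcript or less of it per cell, which cannot be told apart.

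**Figure D1:**
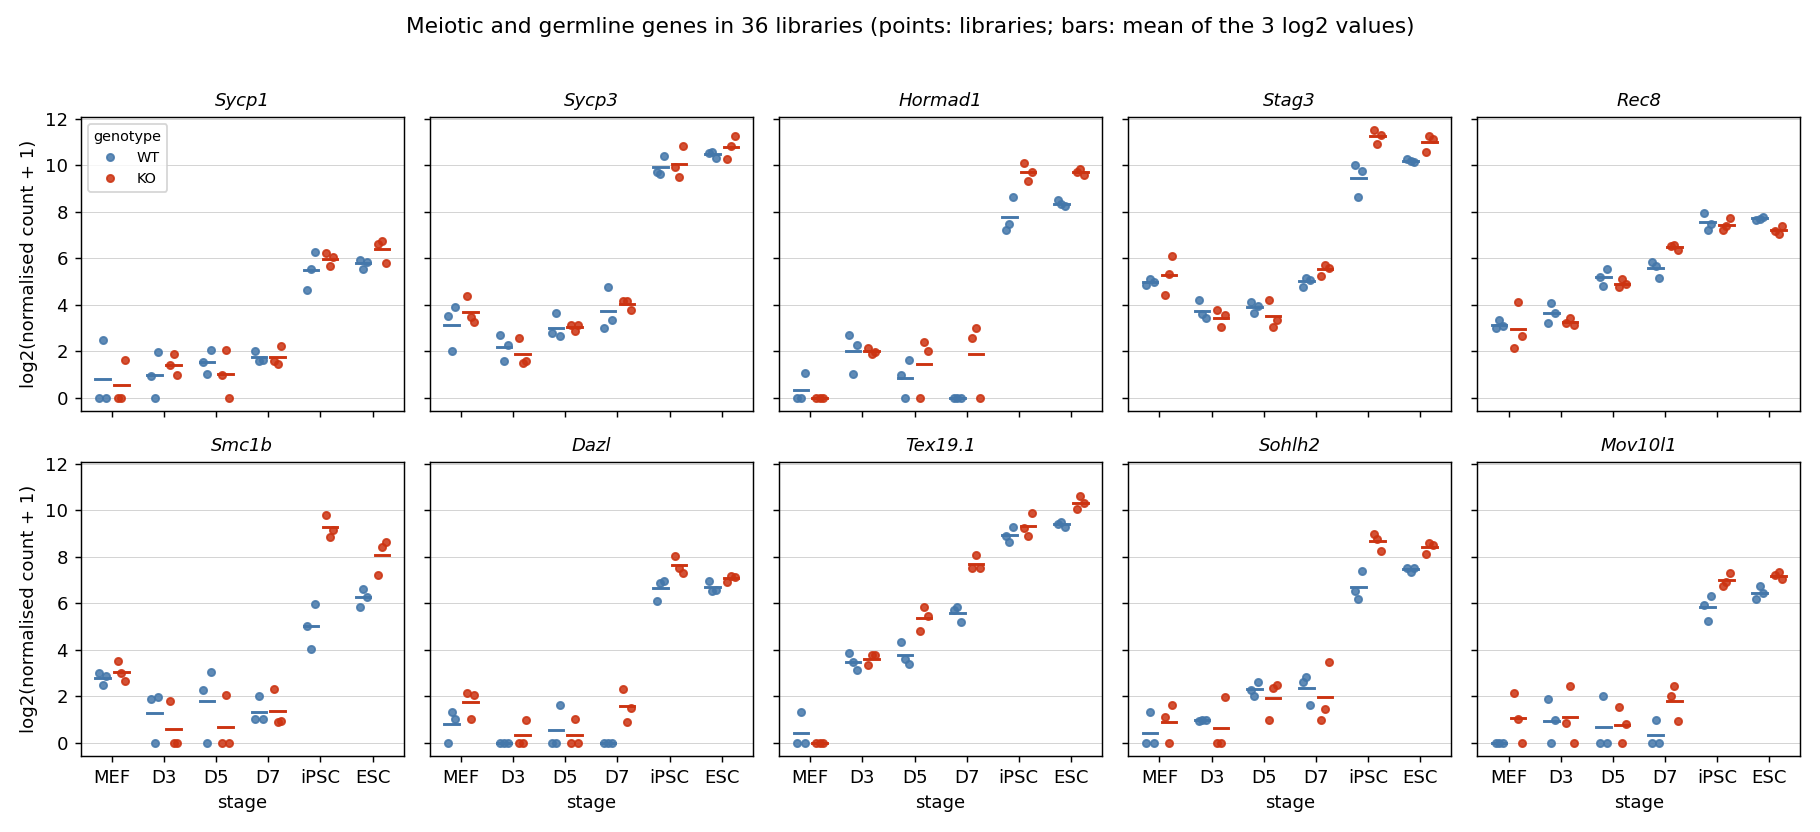
Each panel shows 1 gene, with stage on the x axis and log2(normalised count + 1) on the y axis. Points are the 3 libraries of a group, blue for WT and red for KO, and bars are the mean of the log2 values. All genes are highest in iPSCs and ESCs, Tex19.1 and Rec8 climb earlier, and KO points stand above WT points most clearly for Smc1b, Hormad1, Sohlh2 and Stag3 in iPSCs.

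Positions are those of GRCm38 in GENCODE M21. Among the axis and synaptonemal complex genes, Sycp3 (ENSMUSG00000020059, chromosome 10, 88459569 to 88473236, plus strand), a core protein of the lateral element, had 10.4, 3.03 and 13.8 normalised counts in WT MEFs, 7.10, 26.2 and 9.26 in WT D7 cells and 847, 780.2 and 1338 in WT iPSCs. The step to iPSCs was 69.7-fold (log2FC 6.12, SE 0.41, DESeq2 FDR 1.51e-49). Exons of Sycp3 overlap Chpt1 on the opposite strand, and whether reads were counted by strand is not given in the sources used here, so its level is uncertain. Sycp1 (ENSMUSG00000027855, chromosome 3, 102818499 to 102936100, minus strand), which forms the transverse filaments of the complex, stayed low, with 3.04, 2.01 and 2.06 in WT D7 cells, 24.2, 44.8 and 75.2 in WT iPSCs and 60.2, 45.6 and 56.5 in WT ESCs. Hormad1 (ENSMUSG00000028109, chromosome 3, 95559677 to 95587671, plus strand), an axis protein of unsynapsed chromosomes, had 0 reads in the 3 WT D7 libraries and 147, 177 and 398 normalised counts in WT iPSCs, at least 237-fold higher when the D7 group is set to its limit of 3 reads. The iPSC values of all 3 genes lay above every D7 value.

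The meiotic cohesin genes started from unlike levels. Stag3 (ENSMUSG00000036928, chromosome 5, 138280240 to 138312393, plus strand), the meiotic STAG subunit, was already detected in WT MEFs at 27.8, 33.3 and 30.8 normalised counts, fell at D3 to 17.4, 11.0 and 9.69 (log2FC -1.27, SE 0.41, DESeq2 FDR 0.00317) and reached 26.4, 34.2 and 32.9 at D7. It was the only member called lower in any WT step, where 25.4% of all genes were called lower between MEFs and D3. Stag3 then rose 24.5-fold in WT iPSCs (log2FC 4.61, SE 0.33, DESeq2 FDR 1.29e-44), with 1029, 391 and 871. Rec8 (ENSMUSG00000002324, chromosome 14, 55618037 to 55625395, plus strand), a meiotic kleisin subunit, rose earlier, from 8.25, 16.0 and 11.6 at D3 to 35.9, 26.8 and 45.8 at D5 (log2FC 1.61, SE 0.34, DESeq2 FDR 2.61e-05), and was the only member called between these days, where 4.94% of genes were called higher. Its iPSC step was the smallest of the 10, 4.01-fold. Smc1b (ENSMUSG00000022432, chromosome 15, 85064689 to 85131964, minus strand), the meiotic partner of SMC3, had between 0 and 10.3 normalised counts in all MEF and reprogramming libraries and 32.0, 15.5 and 62.2 in WT iPSCs.

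Of the other germline genes, Tex19.1 (ENSMUSG00000039329, chromosome 11, 121146143 to 121148319, plus strand), a mammal-specific gene of germ and pluripotent cells that acts in retrotransposon control, was the earliest to appear. WT MEFs had 0, 1.51 and 0 normalised counts, D3 cells 13.8, 10.0 and 7.75, D5 cells 19.4, 11.4 and 9.37 and D7 cells 51.7, 56.4 and 36.01, and the D3 values all lay above the MEF values. Its ratio of D3 to MEFs was 23.0 (95% counting interval 3.85 to 936), since the 3 MEF libraries held 1 read, and the difference was called (DESeq2 FDR 0.000656). Tex19.1 and Hormad1 were the 2 members called higher at D3, against 19.5% of genes, and the call of Hormad1 (11 reads against 1, DESeq2 FDR 0.0446) was lost with edgeR (FDR 0.113) and without MEF WT replicate 1 or 2 or D3 WT replicate 1 or 3 (FDR 0.0638 to 0.142). From D5 to D7 Tex19.1 rose again (log2FC 1.84, SE 0.36, DESeq2 FDR 9.17e-06), as did Stag3 (log2FC 1.14, SE 0.39, DESeq2 FDR 0.0204), and these were 2 of 10 members where 4.74% of genes were called higher. The Stag3 step was lost with edgeR (FDR 0.0951) and without D5 WT replicate 2 or 3 or D7 WT replicate 2 or 3 (FDR 0.0514 to 0.0882). Dazl (ENSMUSG00000010592, chromosome 17, 50279395 to 50293636, minus strand), an RNA-binding regulator of translation in germ cells, had 0 reads in the WT D7 libraries and 68.2, 115 and 124 in WT iPSCs, at least 101-fold higher. Sohlh2 (ENSMUSG00000027794, chromosome 3, 55182028 to 55209957, plus strand), a transcription factor of early germ cell differentiation, and Mov10l1 (ENSMUSG00000015365, chromosome 15, 88982909 to 89055152, plus strand), a helicase needed to make piRNAs, had 90.7, 72.3 and 166 (Sohlh2) and 59.6, 37.0 and 79.8 (Mov10l1) in WT iPSCs. The ratio of WT iPSCs to WT D7 cells was 25.0 for Sohlh2 and 172 (95% counting interval 30.5 to 6828) for Mov10l1, which had 1 read at D7.

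Several members were close to the detection limit before D7 in both genotypes. Over the 18 libraries of MEFs, D3 and D5, the highest value was 3.45 normalised counts for Dazl, 4.48 for Mov10l1, 5.50 for Hormad1 and 5.20 for Sohlh2. It was 4.54 for Sycp1, 10.3 for Smc1b and 19.5 for Sycp3. Stag3, Rec8 and Tex19.1 reached 67.8, 45.8 and 56.7, and these were the only members above 30 in any of these libraries.

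Per kilobase of exon, Sycp3 was the most abundant member in WT ESCs at 1128 normalised counts, followed by Tex19.1 at 361, Stag3 at 204 and Hormad1 at 189. Next came Sohlh2 at 74.4, Rec8 at 71.0, Dazl at 27.0, Mov10l1 at 21.2, Smc1b at 19.0 and Sycp1 at 15.2. The library ranges of Stag3 and Hormad1, of Sohlh2 and Rec8, and of each neighbouring pair from Dazl to Sycp1 overlapped, so their order is not settled by these libraries. In WT iPSCs Sycp3 again stood alone at 782, and every pair of neighbours from Tex19.1 at 265 down to Smc1b at 9.03 overlapped. In WT D7 cells Tex19.1 was first at 25.7, ahead of Rec8 at 16.0 with no overlap between them.

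WT iPSCs and WT ESCs were then compared directly. None of the 10 genes was called by DESeq2 (0.126% of genes tested were called higher in ESCs), by edgeR 0 were called, and at unadjusted p < 0.05 there were 3. Independent filtering, which leaves genes with low mean counts without an FDR, gave an FDR to 4 of the 10 in this comparison. All 10 log2FC were above 0, with a median of 0.49 against -0.013 for all genes tested. WT iPSC replicate 3 was the highest of its group for 8 of 10 members. Without it, Hormad1, Smc1b and Sohlh2 were called higher in WT ESCs.

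KO and WT were first compared in iPSCs, the stage at which most members were called. Smc1b, Sohlh2, Hormad1, Stag3 and Mov10l1 rose, 5 of 10, and none fell, against 3.95% of all genes called higher and 0.557% lower. For these 5 and for Dazl, all 3 KO clones lay above all 3 WT clones, as in 11.0% of genes tested. The summed level of the 10 genes was 3012, 2173 and 3914 normalised counts in the WT clones and 7571, 5182 and 7532 in the KO clones, and the median log2FC was 1.05 against 0.024 for all genes tested.

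Smc1b stood apart from the other members. The WT clones had 32.0, 15.5 and 62.2 normalised counts and the KO clones 899, 461 and 567. The lowest KO clone was 7.41 times the highest WT clone. The difference of means was 17.6-fold (log2FC 4.14, SE 0.49, DESeq2 FDR 2.66e-14), and the gene ranked 30 by log2FC among the 21020 genes tested. Stag3, another meiotic cohesin subunit, had 1029, 391 and 871 in WT and 2900.1, 1949.6 and 2499 in KO, a 3.21-fold rise (log2FC 1.68, SE 0.29, DESeq2 FDR 6.76e-07). Rec8, a kleisin of meiotic cohesin, had 243, 147 and 176 in WT and 147, 167 and 213 in KO. Its groups overlapped and no difference was detected (log2FC -0.11, SE 0.21, DESeq2 FDR 0.813, 95% interval -0.52 to 0.31). Of the 3 meiotic cohesin genes among the members 2 rose, and the interval of Rec8 lay below a log2FC of 1.

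Hormad1 had 147, 177 and 398 normalised counts in WT clones and 1101, 631 and 829 in KO clones (3.55-fold, log2FC 1.83, SE 0.34, DESeq2 FDR 4.97e-06). WT replicate 3 stood above the other WT clones and below each KO clone. The synaptonemal complex genes overlapped between genotypes. Sycp3 had 847, 780.2 and 1338 in WT and 969, 712 and 1792 in KO (log2FC 0.23, 95% interval -0.45 to 0.90, DESeq2 FDR 0.739). Sycp1 had 24.2, 44.8 and 75.2 in WT and 73.9, 50.3 and 64.7 in KO (log2FC 0.39, 95% interval -0.44 to 1.22, DESeq2 FDR 0.602). With intervals this wide, differences of these 2 genes of less than about 2-fold were hardly detectable in these clones.

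Sohlh2 had 90.7, 72.3 and 166 normalised counts in WT clones and 507, 429.7 and 305 in KO clones (3.77-fold, log2FC 1.92, SE 0.33, DESeq2 FDR 5.17e-07). Mov10l1 had 59.6, 37.0 and 79.8 in WT and 106, 121 and 158 in KO (2.18-fold, log2FC 1.12, SE 0.32, DESeq2 FDR 0.0063). For both genes the genotypes did not overlap. The Mov10l1 call was lost without iPS WT replicate 2 (log2FC 0.88, DESeq2 FDR 0.0434) and without iPS KO replicate 3 (log2FC 0.95, DESeq2 FDR 0.0548). Dazl had 68.2, 115 and 124 in WT and 265, 185 and 158 in KO, and with log2FC 0.98 (DESeq2 FDR 0.00771) it passed the FDR threshold and not the fold threshold. It was called without iPS WT replicate 2 or 3 or iPS KO replicate 2 or 3 (log2FC 1.04 to 1.14). Tex19.1 had 472, 393 and 623 in WT and 603, 477 and 947 in KO, which overlapped (log2FC 0.45, SE 0.26, DESeq2 FDR 0.25). The 5 calls of Smc1b, Sohlh2, Hormad1, Stag3 and Mov10l1 were also made by edgeR, and Smc1b kept a log2FC of 3.77 to 4.76 when each iPSC clone was left out in turn.

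**Figure D2:**
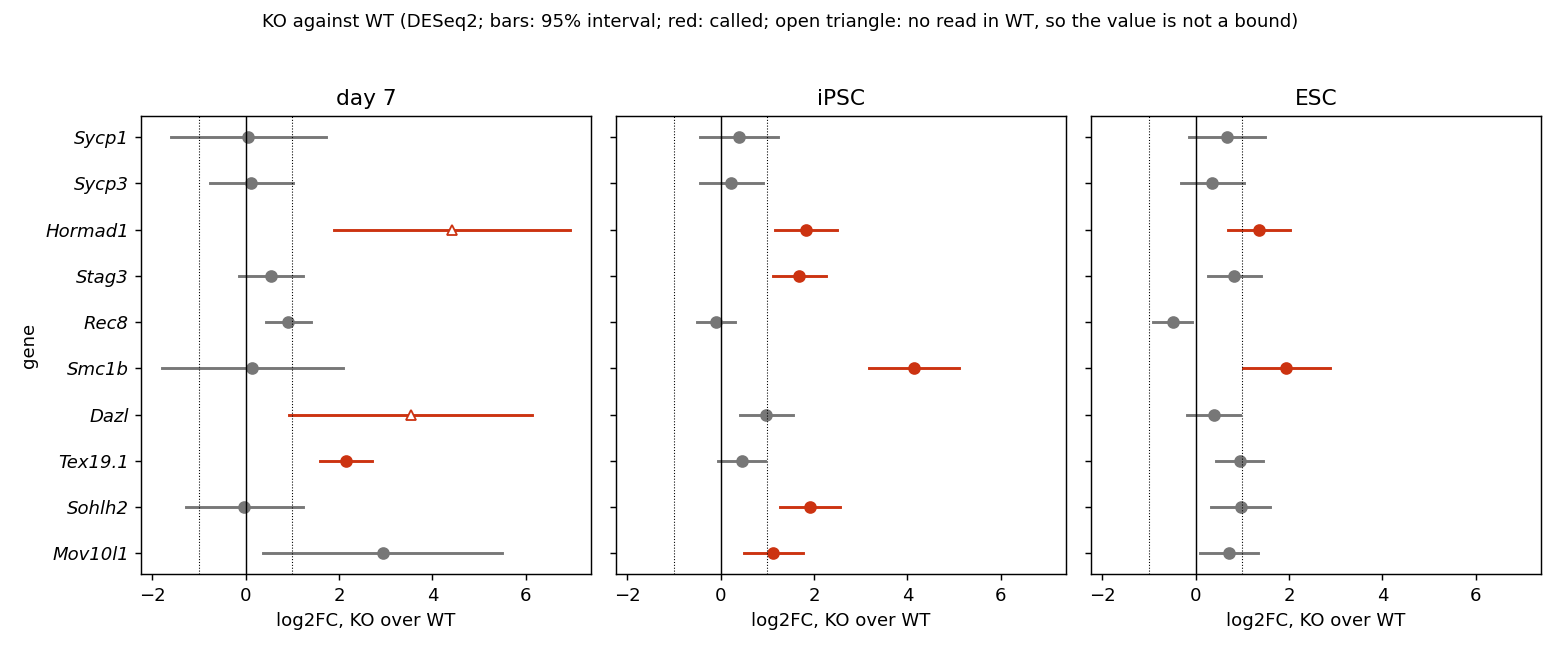
The x axis gives the log2FC of KO over WT at D7, in iPSCs and in ESCs, with 1 gene per row on the y axis. Symbols are DESeq2 estimates, bars 95% intervals, red marks called genes, dotted lines mark a log2FC of 1 in each direction, and open triangles mark Hormad1 and Dazl at D7, where WT had no read and the estimate is not a bound. Smc1b reaches 4.14 in iPSCs and 1.94 in ESCs, Tex19.1 is highest at D7 with 2.14, and Rec8 is above 0 at D7 and below 0 in iPSCs and ESCs.

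In ESCs, Smc1b and Hormad1 were called higher in KO, 2 of 10 members against 0.741% of all genes, and none was called lower (0.468%). Stag3, Tex19.1 and Sohlh2 passed the FDR threshold alone, so that 5 of 10 were higher at FDR < 0.05 where 5.82% of genes were. All 3 KO clones lay above all 3 WT libraries for 6 members, Stag3, Smc1b, Hormad1, Tex19.1, Sohlh2 and Mov10l1, as in 17.7% of genes tested. For Rec8 all 3 KO clones lay below the WT libraries, a direction for which no share of all genes is given here.

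Smc1b had 57.2, 96.2 and 77.3 normalised counts in WT ESCs and 147, 341 and 400.2 in the KO clones (3.85-fold, log2FC 1.94, SE 0.48, DESeq2 FDR 0.00189), with KO clone 1 nearest to WT. Hormad1 had 357, 317 and 305 in WT and 836, 904 and 766 in KO (2.56-fold, log2FC 1.36, SE 0.34, DESeq2 FDR 0.00213), and here the 3 KO clones were close to each other. Stag3 had 1219, 1160.0 and 1123 in WT and 1539, 2464 and 2219.7 in KO (log2FC 0.83, DESeq2 FDR 0.0437). The lowest KO clone was 2.14 times the highest WT library for Hormad1, 1.53 times for Smc1b and 1.26 times for Stag3.

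Tex19.1 had 691, 716 and 624 normalised counts in WT ESCs and 1057, 1568 and 1293 in KO ESCs (log2FC 0.95, DESeq2 FDR 0.00542). Sohlh2 had 181, 162 and 185 in WT and 276, 391 and 364 in KO (log2FC 0.97, DESeq2 FDR 0.0346). Without ESC KO replicate 1, Stag3, Tex19.1 and Sohlh2 also passed the fold threshold, and 5 members were called (log2FC 1.00, 1.08 and 1.10). Rec8 had 199.8, 208 and 218 in WT and 143, 132 and 169 in KO, lower in every KO clone but not past the threshold (log2FC -0.49, DESeq2 FDR 0.121). Mov10l1 had 72.3, 106 and 86.9 in WT and 147, 161 and 130.1 in KO (FDR 0.136 by DESeq2). Sycp1, Sycp3 and Dazl overlapped between genotypes, with log2FC 0.67, 0.36 and 0.38 and DESeq2 FDR from 0.339 to 0.577.

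The KO effect itself was compared between iPSCs and ESCs with an interaction contrast, and in ESCs that effect cannot be told apart from cloning. None of the 10 genes passed the threshold with DESeq2 (1.47% of genes did) or edgeR, and 3 had an unadjusted p < 0.05. The gene with the widest difference was Smc1b, whose log2FC was 2.19 larger in iPSCs (SE 0.68, DESeq2 FDR 0.0713). WT levels of Smc1b were 36.5 ± 23.7 normalised counts in iPSCs and 76.9 ± 19.5 in ESCs, and KO levels 642 ± 229 and 296 ± 132 (mean ± SD, n = 3). Without iPS WT replicate 3 the difference passed for Hormad1, Smc1b and Sohlh2, and without iPS KO replicate 2 or ESC KO replicate 3 it passed for Smc1b alone.

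To ask when the genotypes part during reprogramming, KO and WT were compared in MEFs and at D3, D5 and D7. In MEFs and at D3 none of the 10 genes was called by DESeq2 or by edgeR, and none had an unadjusted p < 0.05, against 0.0143% and 0.119% of genes called higher. Stag3 apart, each member had at most 38 reads summed over the 3 libraries of a group at these stages, so small differences were hardly detectable at this depth. At D5 Tex19.1 alone was called (0.808% of genes higher). At D7 Tex19.1, Hormad1 and Dazl were called higher in KO, 3 of 10 against 3.95% of genes, and none was called lower (4.42%).

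Tex19.1 had 13.8, 10.0 and 7.75 normalised counts in WT and 9.19, 12.54 and 12.6 in KO at D3, which overlapped. At D5 WT had 19.4, 11.4 and 9.37 and KO 26.7, 56.7 and 42.4 (3.13-fold, log2FC 1.63, SE 0.36, DESeq2 FDR 0.000371). At D7 WT had 51.7, 56.4 and 36.01 and KO 185, 270.5 and 182 (4.42-fold, log2FC 2.14, SE 0.29, DESeq2 FDR 4.05e-12), and the lowest KO library was 3.22 times the highest WT library. The KO values at D5 overlapped the WT values at D7, and the KO values at D7 were below all WT iPSC values. Its paralogue Tex19.2 lies in the same table, and reads shared between the copies could be split by the counting.

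The calls of Hormad1 and Dazl at D7 rested on few reads. Hormad1 had 0 reads in the 3 WT libraries and 5.02, 7.003 and 0 normalised counts in KO, 13 reads in all, so that KO was at least 3.94-fold higher with the WT group at its limit of 3 reads, and KO replicate 3 was also at 0. Dazl had 0 reads in WT and 4.02, 0.875 and 1.82 in KO, 7 reads in all and at least 2.20-fold higher. The DESeq2 FDR was 0.00352 for Hormad1 and 0.0296 for Dazl. With 1 of the 6 libraries left out at a time, Dazl was not called in 4 cases (DESeq2 FDR up to 0.156, without D7 KO replicate 1), and when only the D7 libraries were fitted neither Hormad1 nor Dazl was given an FDR.

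Rec8 and Stag3 were detected in every D7 library. Rec8 had 55.8, 50.3 and 35.0 normalised counts in WT and 91.4, 92.8 and 81.7 in KO, and all KO libraries were higher (1.88-fold, log2FC 0.91, SE 0.24, DESeq2 FDR 0.00125), past the FDR threshold and short of the fold threshold, which it passed without D7 WT replicate 1 (log2FC 1.05). Stag3 had 26.4, 34.2 and 32.9 in WT and 37.2, 51.6 and 47.2 in KO, also without overlap, and did not pass (log2FC 0.54, DESeq2 FDR 0.249). With Tex19.1 and Dazl these were the 4 members without overlap at D7, where 20.8% of genes tested had all KO libraries above all WT libraries. Mov10l1 had 9 reads in KO and 1 in WT, a ratio of 8.20 (95% counting interval 1.14 to 359). Its DESeq2 FDR was 0.0769, and 0.0485 and 0.0444 without D7 WT replicate 2 or D7 KO replicate 3. Smc1b, which differed most in iPSCs, had 1.01, 3.02 and 1.03 in WT and 4.02, 0.875 and 0.908 in KO at D7, and Sycp1, Sycp3 and Sohlh2 also overlapped.

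Interaction contrasts tested whether the KO effect differed between stages. From D3 to D7 it grew for Tex19.1 by 2.03 on the log2 scale (SE 0.51, DESeq2 FDR 0.00195) and for Rec8 by 1.37 (DESeq2 FDR 0.035). Hormad1 also passed (DESeq2 FDR 0.0184), though no bound can be given because WT held no read at D7. Of all genes tested, 13.0% passed this contrast. With edgeR only Tex19.1 passed. Leaving out 1 of the 12 libraries at a time, the difference of Rec8 was lost in 8 fits (DESeq2 FDR up to 0.174, without D3 WT replicate 2) and that of Hormad1 in 5 (up to 0.0966, without D7 KO replicate 2). Set against iPSCs, the KO effect at D7 was larger for Tex19.1 (difference 1.70, DESeq2 FDR 0.000182) and Rec8 (1.02, FDR 0.0109), and smaller for Smc1b (-3.99, FDR 0.00291) and Sohlh2 (-1.95, FDR 0.0341). These were 4 of 10 members against 21.9% of genes. With edgeR Tex19.1 and Rec8 passed, and Smc1b and Sohlh2 did not (FDR 0.0885 and 0.102). Without D7 WT replicate 2 the difference of Smc1b was lost (DESeq2 FDR 0.0752), and without D7 WT replicate 3 that of Rec8 (FDR 0.059). The difference of Sohlh2 was lost in 7 of the 12 such fits (FDR up to 0.15, without D7 WT replicate 2). Smc1b and Sohlh2 had at most 9.99 normalised counts in any D7 library.

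Levels of other cell states moved with genotype at D7. The 10 pluripotency genes summed to 9139 ± 1734 normalised counts in WT and 26890.2 ± 3099 in KO (mean ± SD, n = 3), with 9 of 10 called higher, against 3.95% of genes. The 10 fibroblast genes summed to 32636 ± 6639 and 15067 ± 7617, with 2 of 10 called lower (Dcn and Col1a1), against 4.42% of genes. The part of these cell states in the differences of Tex19.1, Rec8 and the other members was not tested. In iPSCs the pluripotency sums were 104114 ± 2579 in WT and 107539 ± 4956 in KO with 0 of 10 called by DESeq2 or edgeR and 1 at unadjusted p < 0.05. In ESCs they were 108357 ± 1365 and 116290.4 ± 866, with 0 called by either tool and 0 at unadjusted p < 0.05. Fibroblast sums were 92.2 ± 15.2 and 157 ± 45.0 in WT and KO iPSCs and 79.7 ± 6.94 and 115 ± 19.9 in ESCs, with Col1a2 called higher in KO iPSCs and Col1a1 in KO ESCs.

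Other genes of the same programme were taken from lists. Of 24 further genes of synapsis and meiotic recombination, 19 were in the table, with a median log2FC of 0.71 in KO iPSCs. There 4 of 19 were called higher and 0 lower, against 3.95% and 0.557% of all genes tested. The 4 called genes were Hormad2, a relative of Hormad1 (a mean ± SD of 15.6 ± 9.07 normalised counts for WT and 94.3 ± 24.8 for KO, log2FC 2.61, SE 0.46, DESeq2 FDR 1.81e-06), Rec114, which acts in the formation of meiotic DNA breaks (log2FC 1.91, DESeq2 FDR 9.69e-06), Tex11 (log2FC 1.25, FDR 0.000167) and the crossover factor Msh5 (log2FC 1.57, FDR 0.00642). In KO ESCs Tex11 alone was called, where 0.741% of genes were called higher. It had a mean ± SD of 66.8 ± 5.30 normalised counts for WT and 185 ± 34.3 for KO (log2FC 1.47, SE 0.27, DESeq2 FDR 1.18e-05). At D7 3 of 19 were called higher, against 3.95% of genes, namely Syce2 of the central element (log2FC 1.11), Tex11 (2.49, 5 reads in WT) and Hormad2 (1.44). In WT ESCs against WT MEFs 17 of 19 were called higher, against 26.0% of genes, and 1, Tex15, lower.

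Of 19 other germ cell genes, 15 were in the table. Of these, 3 were called higher in KO iPSCs, against 3.95% of all genes tested. They were Taf7l (log2FC 1.92, DESeq2 FDR 0.000659), Dppa3 (2.23, FDR 0.00341) and Stra8, which is induced by retinoic acid at meiotic entry (2.12, FDR 0.022). None was called in KO ESCs by DESeq2, with 1 by edgeR and 4 at unadjusted p < 0.05. At D7 6 were called higher, against 3.95% of genes. They were Prdm14 (a mean ± SD of 47.4 ± 19.0 normalised counts for WT and 223 ± 32.0 for KO, log2FC 2.24, SE 0.24, DESeq2 FDR 3.56e-18), Dnd1, Dppa3, Nanos3, Meioc and Ddx4, of which Prdm14 and Dppa3 are also known from pluripotent cells. Median log2FC over the 15 was 1.16 at D7, 0.27 in iPSCs and 0.15 in ESCs.

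The mitotic cohesin genes Smc1a, Rad21, Stag1 and Stag2, the somatic counterparts of Smc1b, Rec8 and Stag3, and Smc3, a subunit of both kinds of cohesin, were set beside them. None of the 5 was called at D7, in iPSCs or in ESCs by DESeq2 or by edgeR, and 4, 1 and 2 had an unadjusted p < 0.05. At D7 4 of 5 passed the FDR threshold alone, all higher in KO. The share of all genes that passed it at D7 is not given here, so this count cannot be set against it. Their summed level was 33565 ± 2622 normalised counts in WT iPSCs and 35787 ± 1861 in KO iPSCs, and the median log2FC was 0.086. Among 13 genes of PRC1.6 and its partners, 0 were called in the same 3 comparisons by either tool, with 8, 3 and 3 at unadjusted p < 0.05 and median log2FC of 0.081, -0.020 and 0.022. At the DESeq2 FDR threshold alone, 5 were higher and 2 lower at D7, 2 and 1 in iPSCs, and 3 and 0 in ESCs. In ESCs 5.82% of genes were higher at that threshold. The other shares at that threshold are not given here, so the other counts cannot be set against all genes. Summed levels in WT and KO were 35195 ± 277 and 41034 ± 867 at D7, 55047 ± 3475 and 55094 ± 2700 in iPSCs, and 50728 ± 347 and 56160 ± 1250 in ESCs.

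Genes of the 2-cell-like state, a rare state in which pluripotent cultures transcribe early embryo genes, were also listed. In KO iPSCs 3 of 6 were called higher by DESeq2 (Usp17lc, Tcstv1 and Tcstv3), against 3.95% of all genes tested. By edgeR 6 were called, and the median log2FC was 2.30. Their summed level was 843, 5.17 and 778 normalised counts in WT iPSC clones 1, 2 and 3 and 1899.8, 3442 and 2016 in KO clones. In ESCs the sums were 1256, 1195 and 862 in WT and 2664, 2174 and 1719 in KO, and no gene was called by DESeq2 or edgeR, with 0 at unadjusted p < 0.05. DESeq2 gave an FDR to 4 of the 6, and the median log2FC was 0.99. All KO clones lay above all WT ESC libraries for 6 of 6, as in 17.7% of genes tested. The 6 genes belong to families of near-identical copies, so their counts are uncertain. The KO clone with the highest sum, replicate 2, was the lowest of the KO clones for 6 of the 10 meiotic and germline genes, and WT clone 2, with the lowest sum, was the lowest WT clone for 7 of them. These ranks come from only 3 clones per genotype, and the share of all genes lowest in the same clone is not given here. The part of 2-cell-like cells in the differences of the 10 genes was not tested.

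**Figure D3:**
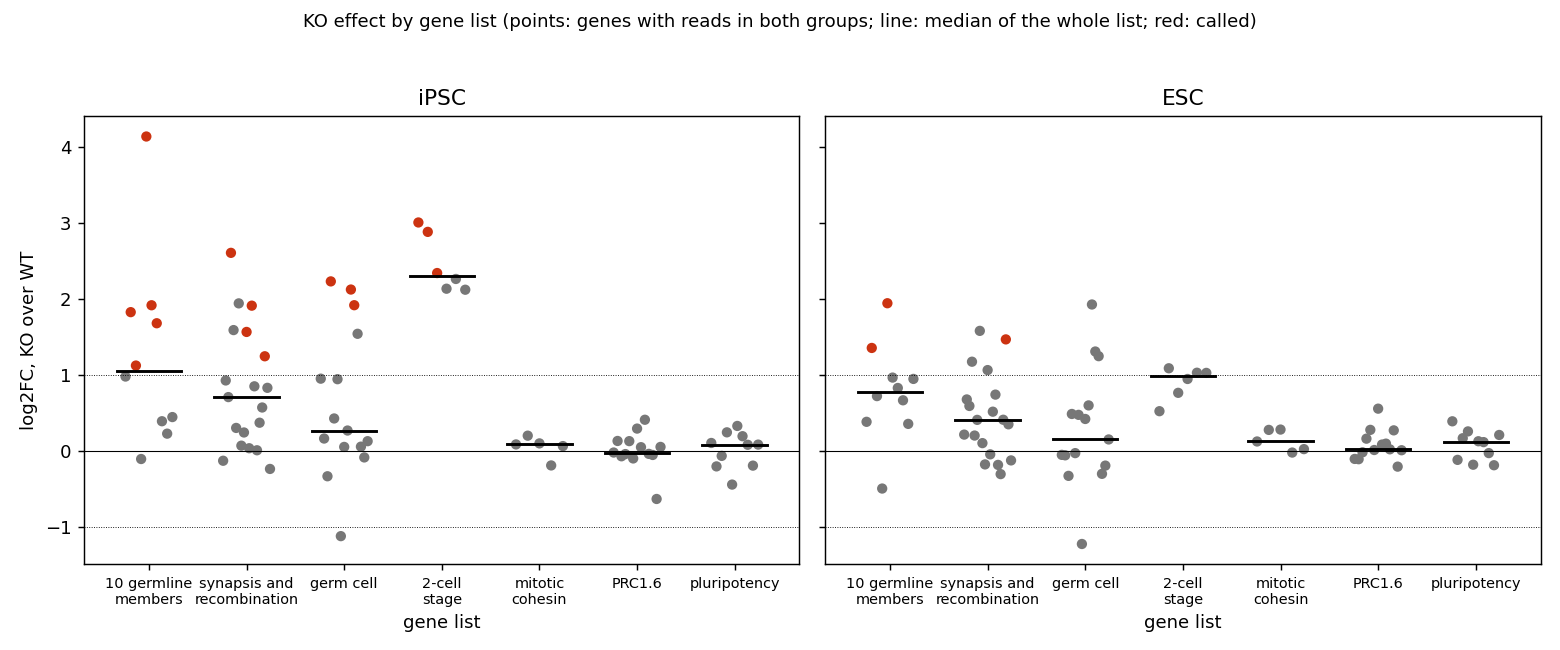
Each point is the log2FC of KO over WT of a gene with reads in both genotypes, in iPSCs on the left and ESCs on the right, grouped on the x axis by gene list. Red marks called genes, the black line is the median of the whole list in the table, and dotted lines mark a log2FC of 1 in each direction. In iPSCs the medians are 1.05 for the 10 meiotic and germline genes and 0.086 for mitotic cohesin, and in ESCs 0.78 and 0.13.

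The 10 genes shared most of their course over the 12 group means of log2(normalised count + 1), points that share libraries, stages and depth. The correlation of each with the mean of the 10 z-scored profiles ran from 0.877 for Tex19.1, 0.890 for Rec8 and 0.919 for Smc1b to 0.992 for Sycp1. That mean includes the gene itself, which raises these values by construction. Among the other genes with a mean of at least 10 normalised counts, those most like this mean profile were Ubash3a (r = 0.998), Gm3333 (r = 0.997), Gm13228 (r = 0.997), Ppef2 (r = 0.995) and Gm4924 (r = 0.995). Ubash3a had 2.03 normalised counts in WT D7 cells, 222 and 419.9 in WT and KO iPSCs, and 224 and 449 in WT and KO ESCs, as group means. These values describe likeness of pattern.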

How the data were processed

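Libraries were made by the study with a stranded mRNA kit and sequenced as 75-base single reads. Per the labels and the methods, reads were trimmed with Cutadapt, aligned to GRCm38 with STAR and counted per gene with Rsubread, and the strand setting and annotation release are not given in the sources used here. The authors deposited raw counts per gene and a normalised signal, the counts divided by DESeq2 size factors. Counts divided by size factors recomputed here equalled the deposited values (largest relative difference 4.98e-15). Log counts and the columns of the authors' fold changes and p-values were not used.

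Counts of all 36 libraries were fitted with DESeq2 1.42.0 (R 4.3.3) as 12 groups, with Wald tests, default independent filtering and Benjamini-Hochberg adjustment over all genes tested. Genes were called at FDR < 0.05 and an absolute log2FC above 1, and the interaction contrasts at FDR < 0.05. Levels are normalised counts, and limits for 0 reads and counting intervals cover counting error only. Alternatives were edgeR 4.0.16 (quasi-likelihood, TMM), DESeq2 with TMM size factors, a low-count filter (at least 10 counts in 3 libraries), a replicate block, only the compared groups, the FDR alone, and leaving out each library. On simulated counts for KO against WT iPSCs over 21442 genes, DESeq2 and edgeR each called 196 of 200 genes changed 4-fold, with 7 and 3 false calls. The changed genes were drawn only from those with higher mean counts, so this rate does not describe members with few reads. Replicate libraries differed by 3.16 to 103 times counting variance, so none was a duplicate. The widest values were those of MEF KO replicate 3 with replicates 1 and 2 (99.2 and 103), against 4.38 between replicates 1 and 2. With each MEF library left out in turn, 0 members were called between MEF genotypes. Positions come from GENCODE M21, which held 21417 of 21442 gene IDs, and promoter sequences from RefSeq (GRCm38.p6). Tables and figures were made with Python 3.11.15, pandas 2.3.3 and matplotlib 3.10.9.

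All 10 members are named, and of the other lists the genes called in a comparison. The members and lists were chosen with earlier results of these data known.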

Additional observations from a re-analysis of the deposited data

Results flagged for a closer look

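For 5 genes the KO effect differed between stages by an interaction contrast (DESeq2, FDR < 0.05). Between D3 and D7 the log2FC of KO over WT grew by 2.03 for Tex19.1, by 1.37 for Rec8 and by a fitted 4.65 for Hormad1, whose WT libraries held no read at D7. Against iPSCs, the log2FC at D7 was larger by 1.70 for Tex19.1 and by 1.02 for Rec8, and the difference was -3.99 for Smc1b and -1.95 for Sohlh2. With edgeR the differences of Tex19.1 in both contrasts and of Rec8 against iPSCs passed, and the other 4 did not. The pluripotency genes were also higher and the fibroblast genes lower in KO at D7, and their part in these differences was not tested. No group of 3 libraries was tested for outlying samples.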

How the results depend on the processing

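Counts of called members stayed within 1.5 times in 177 of 195 alternatives. With only the compared groups, 1 member was called in KO against WT at D7 and 1 in WT D7 against D5. With the FDR alone 5 were called in KO ESCs. With edgeR 1 was called in WT D7 against D5, 1 in the contrast of D7 with D3 and 2 in that of D7 with iPSCs. Leaving out each library gave 2 to 5 calls in KO ESCs (5 without ESC KO replicate 1), 1 to 2 in WT D7 against D5, 0 to 3 in WT ESCs against WT iPSCs, 1 to 3 for D7 against D3, 2 to 5 for D7 against iPSCs and 0 to 3 for iPSCs against ESCs.

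Of the values of single genes, 663 kept direction and call, 47 lost and 10 gained the call, and 17 uncalled values changed sign, with causes not tested. Leaving out each library in turn, these ranged at D7 from -0.342 to 0.278 for Sycp1, from -0.201 to 0.918 for Sycp3, from -0.926 to 0.872 for Smc1b and from -1.65 to 0.402 for Sohlh2 (0.00247 with edgeR and 0.0012 with TMM size factors), and in iPSCs from -0.234 to 0.51 for Sycp3 and from -0.267 to 0.119 for Rec8, all on the log2 scale.

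Replicate numbers are shared across groups, but deviations of same-numbered WT and KO libraries correlated at -0.12 to 0.29 and at no stage were all 3 above 0.1, so the numbers were not taken to pair libraries. At D5 and D7, as a hint from the data alone, every WT library correlated best with the KO library of its own number. The replicate block gave each replicate number the same effect in all 12 groups, so it did not model a pairing within a single stage. With it, 4 members were called in KO iPSCs (Mov10l1 was lost, FDR 0.119), 1 at D5, 3 at D7, 2 in KO ESCs and 2 for D7 against D3 (Rec8 was lost, FDR 0.056), and the other counts did not change.

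Apart from Stag3, Rec8 and Tex19.1, the members had at most 35 reads summed over a group before D7, which limits comparisons of them there.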
